A study of Mus musculus with 6 samples.

Results

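The canonical histone genes of B16F10 melanoma were read in tumors grown at 2 body sites, the hind footpad and the flank skin. The genes were taken by their symbols, as every listed gene named as a clustered core histone (H2A, H2B, H3 or H4) or as a linker histone of the H1 group, with symbols marked as pseudogenes left out. This gave 68 of 45777 listed genes: 10 linker histone genes and 58 core histone genes, of which 18 encode H2A, 17 H2B, 12 H3 and 11 H4. One of the H2A rows, Hist1h2al, is a transcribed pseudogene in the RefSeq annotation and was kept because its symbol fits. After a filter on low counts 64 genes could be tested, and H1f7, H1f8, H1f10 and H2ac1 could not.

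B16F10 is a pigmented melanoma line that arose in C57BL/6 mice. Total RNA was sequenced from 6 grafts, 3 from the hind footpad (footpad 1 to 3) and 3 from the flank skin (flank 1 to 3), 1 library per tumor. Both groups are labelled with the same host, Foxn1-/- mice of 8 weeks, which lack a thymus and so most T cells but keep other immune cells. The methods describe B16F10 cells injected at the same time into flank and footpad of C57BL/6J mice. Elsewhere the paper reports B16F10 grafts at both sites of Foxn1-null mice too. It does not tie a mouse or host to these libraries. The labels do not say whether tumors at the same number shared a mouse or a day, every graft came from the same cell line, and p-values measure the spread between these tumors only.

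In the nucleosome, DNA is wrapped around a core of H2A, H2B, H3 and H4, and a linker histone binds where the DNA enters and leaves. Canonical histone genes lie in clusters, lack introns in most cases and are transcribed in S phase, when new DNA has to be packaged. Their mRNAs usually end without a poly(A) tail in a conserved stem-loop that binds the protein SLBP, so a library made from total RNA, as here, holds them, while one selected on poly(A) loses most of them. Some members are known exceptions: H1f2, H2bc4 and H2bc21 also give polyadenylated transcripts, H1f0 and H1f10 are replacement linker histones made outside S phase, and H1f6, H1f7, H1f8, H2ac1 and H2bc1 are known from germ cells.

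The stem-loop is what most of these mRNAs have in common at the sequence level. A match of 16 bases was found after the stop codon in 42 of the 67 members with a coding transcript in the GENCODE annotation of GRCm38, starting 21 to 58 bases after it (median 31). Of the 25 models without a match, 19 end within 60 bases of the stop codon; the other 6 are those of H2bc21, H2bc4, H1f0, H1f7, H1f8 and H1f10. The forms below show how the linker, H2A, H2B and H3 genes differ from the H4 genes; capitals mark the paired bases of the stem and lower case the loop.
24 members of H1, H2A, H2B and H3, among them H1f2, H1f3, H2ac18 and H2bc8: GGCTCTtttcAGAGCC
6 members of H1, H2B and H3, among them H1f6, H2bc3 and H3c3: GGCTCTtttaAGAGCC
5 H4 members, among them H4c3, H4c4 and Hist1h4n: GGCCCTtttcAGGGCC
H4c14 and H4c9: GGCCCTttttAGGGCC
H4c11 and H4c2: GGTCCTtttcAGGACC
The same stem stands in H4c14, which was lower in footpad tumors, and in Hist1h4n, whose values were higher there, so members on both sides carry it. Each of the 10 H4 matches has a stem that no matched gene of another family has.

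The libraries held 46529649 to 66364366 reads on genes. Melanocyte and melanoma markers, 10 genes, summed to 14000 to 24100 CPM (counts scaled to the size of the library) in footpad tumors and to 18000 to 29700 CPM in flank tumors, so both sites carried the labelled tumor. Markers of other cells differed: 12 fibroblast markers summed to 2800 to 3810 CPM in footpad and 96.2 to 437 CPM in flank tumors, with 9 of 12 called higher, and 8 endothelial markers to 295 to 317 and 156 to 198 CPM, with 3 of 8 called higher. Macrophage markers, 10 genes, summed to 264 to 296 against 34.7 to 188 CPM, with 1 called, and no gene was called among 10 neutrophil markers (6.87 to 369 against 4.76 to 30.5 CPM) or 6 B and plasma cell markers (1.3 to 1.66 against 1.42 to 2.08 CPM). Footpad 2 held 1260 CPM of 9 keratinocyte markers and 1100 CPM of 10 skeletal muscle markers, against 3.33 to 37.0 and 11.3 to 201 CPM in the other 5 tumors, and 7 erythroid markers ran from 1930 to 36500 CPM with overlap between the sites. In bulk tumors fewer cells of a type and less RNA per cell cannot be told apart, and the part of these cells in the histone values was not tested.

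Summed over all members, the mean level of histone RNA was lower in footpad than in flank tumors, and whether the tumors overlapped depended on the scaling. The members took 0.3042%, 0.5542% and 0.3656% of the reads in footpad 1, 2 and 3, and 0.5224%, 0.7698% and 0.9212% in flank 1, 2 and 3, so by this unscaled share footpad 2 lay above flank 1. Scaled by TMM, their summed CPM was 4041 ± 1164 (SD, n = 3) in footpad and 7366 ± 1839 (SD, n = 3) in flank tumors, a ratio of 0.549. On the TMM scale footpad 2, at 5364 CPM, lay just below flank 1, at 5632 CPM, and the sites did not overlap.

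**Figure D1:**
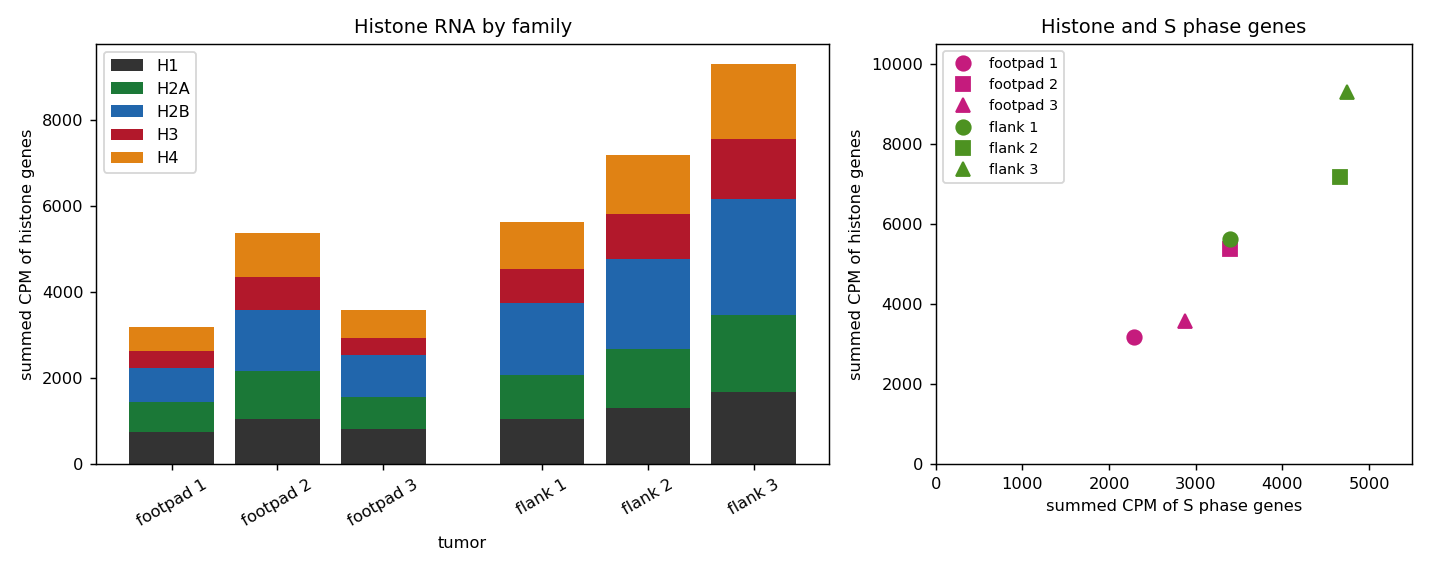
Left, summed CPM of the histone genes in each tumor, stacked by family; right, the same sum against the summed CPM of 42 S phase genes, 1 point per tumor. The 3 footpad tumors hold 3177 to 5364 CPM of histone RNA and the 3 flank tumors 5632 to 9294, and footpad 2 and flank 1 lie next to each other in both sums.

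Gene by gene, the difference ran one way for most members and passed the test for few. Of the 64 tested members, 54 had a log2 fold change (footpad over flank) below 0 and 10 above 0, with a median of -0.78, against a median of -0.0042 over all 17210 genes tested. With edgeR's quasi-likelihood fit, where a call needs an adjusted p below 0.05, 3 members were called lower in footpad tumors (H4c14, H2bc3 and H2bc8, 4.69% of those tested) and 0 higher; over all genes tested 1.44% were called lower and 3.43% higher. At an unadjusted p under 0.05 there were 39 members lower and 4 higher, where 10.5% and 14.8% of all tested genes stood. DESeq2 called 32 of 66 members lower and 5 higher, with 4.5% of its genes called lower and 7.98% higher. The tumors of the sites did not overlap in CPM for 24 members lower in footpad tumors (37.5%) and 3 higher (4.69%), against 14.9% and 17.5% of all tested genes.

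The spread between tumors of a site was shared by nearly all members. Footpad 2 was the highest footpad tumor for 62 of the 64 members and footpad 1 the lowest for 54. Flank 3 was the highest flank tumor for 61 and flank 1 the lowest for 58. Sums of 42 S phase genes followed this order, with 2290, 3390 and 2880 in footpad and 3400, 4660 and 4750 CPM in flank tumors. So did those of 30 G2 and M phase genes, at 2340, 3070 and 2930 against 3000, 4190 and 4350 CPM. How often all tested genes had this order was not computed. Without footpad 2, edgeR called 25 members lower, against 1.55% of all genes, and the median log2 fold change was -1.02. Without footpad 1 or footpad 3 it called 0 members lower, where 0.028% and 0% of all genes were called, and without flank 1, 2 or 3 it called 1, 1 and 0, where 0.653%, 0.619% and 0.0559% were. Of the 30 members below 0 whose sites overlapped, 23 did not overlap once footpad 2 was left out. Leaving out a tumor can only reduce overlap, and this count was not taken over all tested genes, so it is a description only. In all, 47 of the 64 members had footpad 1 and footpad 3 below each flank tumor, against 22.6% of all tested genes. Footpad 2 is the tumor with the keratinocyte and muscle markers above, and it also had the lowest erythroid sum of its site (3960 CPM, against 36500 in footpad 1 and 17900 in footpad 3); flank 1, with the lowest histone sum of the flank, had the highest erythroid sum there (31000 CPM, against 3560 and 1930). The part of these values in the order of the tumors was not tested.

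The abundant replication-linked linker histones were H1f2, H1f3 and H1f4, with a mean level over the 6 tumors of 480.9, 301.8 and 275.7 FPKM, a unit that corrects for transcript length. H1f3 had 125.8, 229.8 and 152.4 CPM in footpad 1, 2 and 3 and 254.7, 354.1 and 445.5 CPM in flank 1, 2 and 3. Each footpad tumor was below each flank tumor, at a log2 fold change of -1.05 (SE 0.28, edgeR adjusted p = 0.0725), which missed the threshold. H1f2 had 262.0, 393.0 and 270.8 CPM against 335.4, 464.3 and 603.9 CPM, and its log2 fold change was -0.60 (SE 0.26, edgeR adjusted p = 0.198). For H1f2 footpad 2 lay above flank 1, and H1f4 overlapped likewise, with a log2 fold change of -0.65 (SE 0.25, edgeR adjusted p = 0.160).

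H1f0, the replacement linker histone that accumulates in cells that slow or stop dividing, differed less between the sites. It had 167.4, 170.7 and 188.3 CPM in footpad tumors and 237.2, 173.7 and 214.4 CPM in flank tumors. The groups overlapped, and the log2 fold change was -0.25 (SE 0.15, edgeR adjusted p = 0.356). Its order among the tumors was its own: flank 1, low in most other members, was the highest of all for H1f0.

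H1f5 and H1f1 are the replication-linked linker histones at low level here, at a mean of 7.552 and 6.768 FPKM, and their values pointed the other way. H1f5 had 5.68, 13.2 and 13.1 CPM in footpad 1, 2 and 3 and 0.707, 2.45 and 4.62 CPM in flank 1, 2 and 3. All footpad tumors were above all flank tumors, 4.11-fold by the fit (log2 fold change 2.04, SE 0.65), yet the edgeR adjusted p was 0.106, where DESeq2 gave 0.00212. H1f1 had 4.47, 10.8 and 9.86 CPM against 0.621, 2.45 and 5.24 CPM, so footpad 1 lay below flank 3, and its log2 fold change was 1.59 (SE 0.70, edgeR adjusted p = 0.205; DESeq2 adjusted p = 0.0432). None of the 100-base windows of either transcript occurs in an annotated transcript of another gene.

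Within the linker histone reads of a tumor, a share that needs no scaling to the library, the make-up differed between the sites. H1f0, made outside S phase, held 22.6%, 16.2% and 23.4% of this total in footpad tumors and 22.7%, 13.4% and 12.8% in flank tumors. The shares of the other genes therefore depend on it too. H1f5 made up 0.767%, 1.26% and 1.63% of linker reads in footpad tumors and 0.0678%, 0.188% and 0.276% in flank tumors, and H1f1 0.604%, 1.02% and 1.23% against 0.0595%, 0.188% and 0.313%. H1f3 made up 17.0%, 21.9% and 18.9% in footpad tumors and 24.4%, 27.3% and 26.6% in flank tumors. For H1f5, H1f1 and H1f3 the shares at the sites did not overlap, and for H1f0, H1f2, H1f4 and H1f6 they did. With 3 tumors a site, an exact two-sided permutation test cannot give a p under 0.1, so none is given for the shares.

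**Figure D2:**
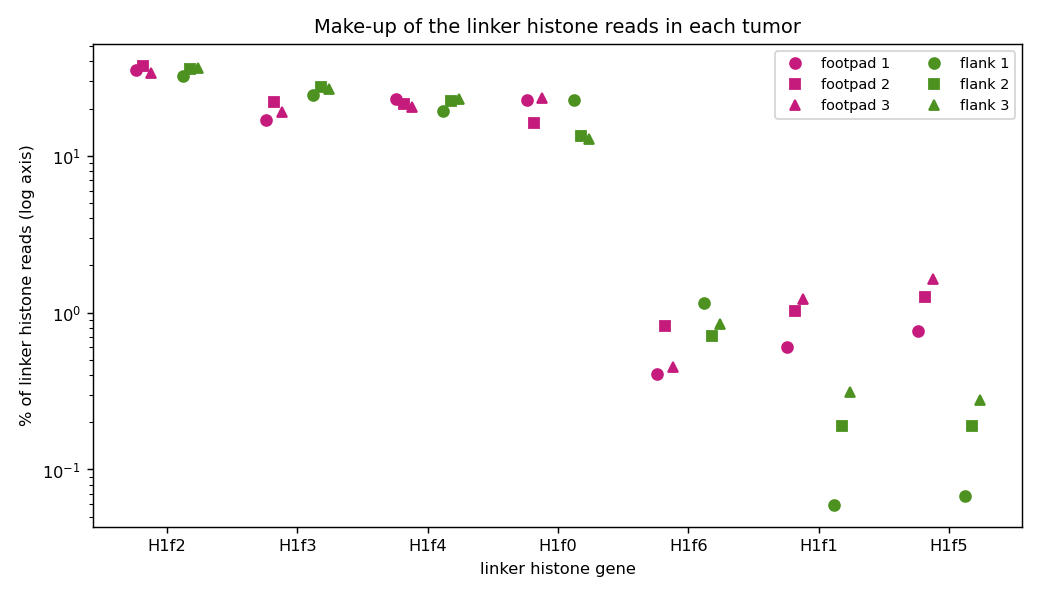
Share of all linker histone reads (percent, log axis) taken by each tested linker histone gene in the 3 footpad and 3 flank tumors, 1 point per tumor. H1f5 and H1f1 take 0.604% to 1.63% in footpad and 0.0595% to 0.313% in flank tumors, and H1f3 a larger share in flank tumors.

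The starts of H1f5 and H1f1, with values above 0, and of H1f3 and H1f4, with values below 0, are shown. The sequences are the 120 bases before the annotated start, from RefSeq on GRCm38.p6; capitals mark 3 motifs that were searched on both strands: the TATA box TATAAA, the CCAAT box, which reads ATTGG from the other strand, and the H1 box AAACACA.
H1f5, chr13:21780626-21780745, minus strand: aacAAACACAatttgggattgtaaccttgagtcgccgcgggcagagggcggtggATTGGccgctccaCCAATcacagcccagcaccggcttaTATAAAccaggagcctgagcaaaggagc
H1f1, chr13:23763548-23763667, plus strand: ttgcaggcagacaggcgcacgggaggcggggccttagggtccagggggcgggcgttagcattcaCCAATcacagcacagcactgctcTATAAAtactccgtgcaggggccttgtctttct
H1f3, chr13:23554912-23555031, plus strand: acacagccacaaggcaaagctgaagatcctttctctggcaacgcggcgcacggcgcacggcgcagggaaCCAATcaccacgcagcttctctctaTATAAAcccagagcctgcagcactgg
H1f4, chr13:23622559-23622678, minus strand: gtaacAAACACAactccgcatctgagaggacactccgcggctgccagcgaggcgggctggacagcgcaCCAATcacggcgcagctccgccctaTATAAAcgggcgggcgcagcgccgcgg
H1f5 and H1f4 show AAACACA in this stretch, and all 4 show a CCAAT box and a TATA box. In the window from 250 bases before to 50 after the start, 34 of the 62 members with a promoter in the RefSeq table held the TATA box (54.8%, against 13.6% of 32851 promoters), 52 the CCAAT box (83.9%, against 37.4%) and 9 the H1 box (14.5%, against 7.2%). The CCAAT box stood in all 17 H2A, 15 H2B and 10 H3 promoters and in 3 of 10 H4 promoters. Within this window H1f3 also held the H1 box, and H1f1 did not. Whether these elements bear on the site difference was not tested.

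All 17 tested H2A members had a log2 fold change below 0, from -1.12 to -0.23 with a median of -0.73, and 0 were called. The pair with the highest level, H2ac18 and H2ac19 (457.4 and 426.5 FPKM), lie side by side on chromosome 3. Of their 100-base windows 88.3% and 100% occur in a transcript of another gene, which need not be the partner. Windows of each were found in 18 other genes. H2ac18 had 198.3, 270.2 and 208.6 CPM in footpad and 258.3, 332.8 and 434.0 CPM in flank tumors, with overlap (log2 fold change -0.60, SE 0.22, edgeR adjusted p = 0.151). H2ac19 stood at -0.62 (SE 0.22, edgeR adjusted p = 0.136). How the authors' counting divided reads between this pair, or with the other genes that share windows, is not given. The values of the pair are best read together and with that limit. The lowest value belonged to H2ac10, with 15.5, 33.1 and 18.3 CPM against 36.6, 50.7 and 58.0 CPM; the sites did not overlap, and the log2 fold change was -1.12 (SE 0.31, edgeR adjusted p = 0.0769).

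H2B genes gave 2 of the 3 called members. H2bc3 had 100, 205.7 and 125.5 CPM in footpad tumors and 310.1, 359.9 and 469.1 CPM in flank tumors. Even the highest footpad tumor stayed below the lowest flank tumor, and H2bc3 was 2.64-fold lower in footpad tumors (log2 fold change -1.40, SE 0.29, edgeR adjusted p = 0.0410). H2bc8 had 86.5, 158.5 and 101.2 CPM against 213.4, 246.9 and 316.7 CPM, and fell 2.24-fold (log2 fold change -1.17, SE 0.26, edgeR adjusted p = 0.0489), also without overlap. Both calls were lost in each fit that left out a tumor other than footpad 2, with an adjusted p of 0.0624 to 0.152 for H2bc3 and 0.0655 to 0.166 for H2bc8. H2bc3 shares 32.8% and H2bc8 44.9% of its windows with other genes.

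The lowest value of all members was that of H2bc9, with 40.8, 95.2 and 53.7 CPM in footpad and 121.6, 181.3 and 223.7 CPM in flank tumors. The sites did not overlap, and the log2 fold change of -1.47 (SE 0.35) missed the threshold at an edgeR adjusted p of 0.0555. H2bc18, which at 630.2 FPKM had the highest level of any member, had 161.6, 310.7 and 209.4 CPM against 351.7, 447.3 and 593.7 CPM and a log2 fold change of -1.03 (SE 0.29, edgeR adjusted p = 0.0783). H2bc18 likewise had each footpad tumor below each flank tumor.

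In the H2B family 13 members were below 0 and 4 above. H2bc4, one of the genes that also give polyadenylated mRNA, had 168.9, 224.6 and 192.7 CPM in footpad and 248.2, 278.9 and 361.9 CPM in flank tumors (log2 fold change -0.60, SE 0.19, edgeR adjusted p = 0.104), without overlap. H2bc21, a known polyadenylated member, had 15.02, 20.04 and 13.64 against 11.4, 14.8 and 10.6 CPM (log2 fold change 0.41, SE 0.22, edgeR adjusted p = 0.282), with overlap. H2bc14, at 5.375 FPKM, had 2.40, 5.64 and 4.43 against 0.535, 1.57 and 2.65 CPM, with 1 footpad tumor below 1 flank tumor (log2 fold change 1.39, SE 0.59, edgeR adjusted p = 0.193). As a share of all histone CPM, H2B took 24.8% to 27.2% in footpad tumors and 29.0% to 29.7% in flank tumors, and H1 19.6% to 23.3% and at most 18.5%.

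**Figure D3:**
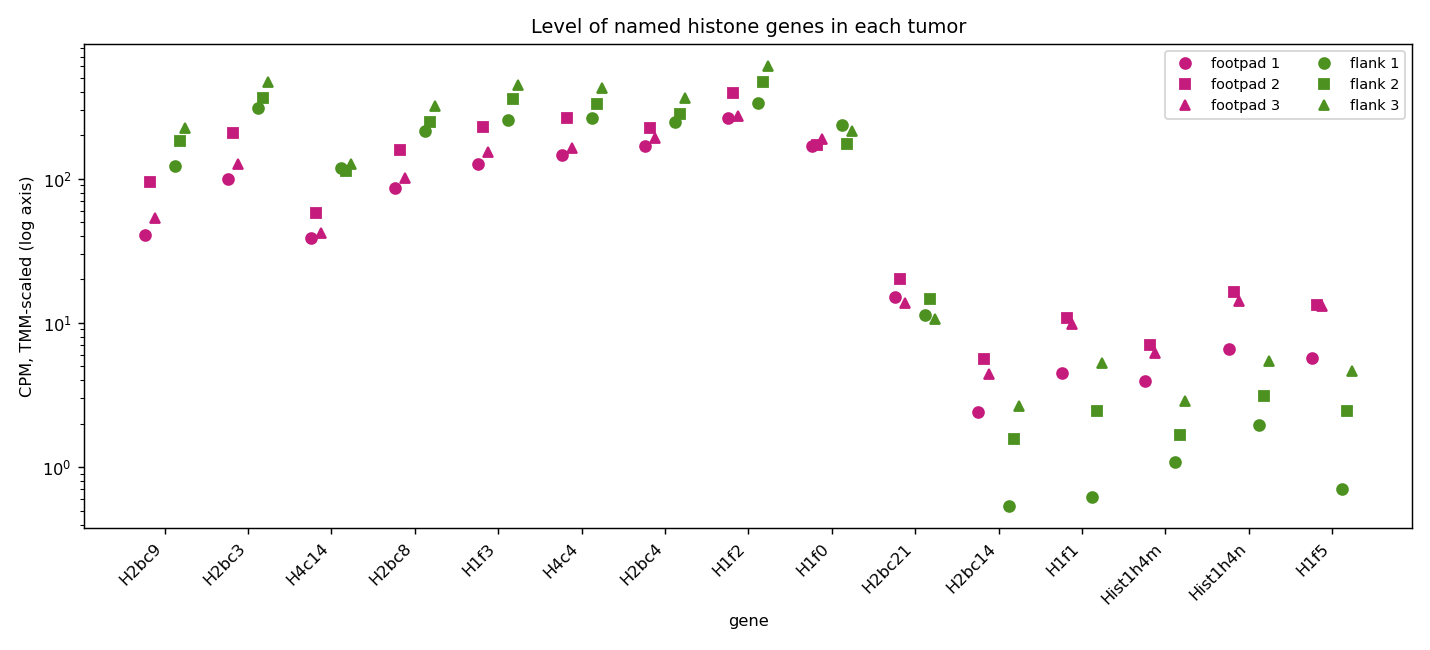
CPM of 15 histone genes in each tumor on a log axis, ordered by log2 fold change; colors give the site and symbols the replicate number. H4c14, H2bc3 and H2bc8 are the called members, and H1f5, Hist1h4m and Hist1h4n are the genes whose footpad tumors all lie above their flank tumors.

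The H3 family had 11 members below 0 and 1 above, a median of -0.83 and 0 calls. Its member with the highest level, H3c3 (222.2 FPKM), had 58.6, 120.5 and 57.8 CPM in footpad and 116.6, 153.2 and 204.9 CPM in flank tumors, so that footpad 2 lay just above flank 1 (log2 fold change -1.002, SE 0.34, edgeR adjusted p = 0.120). H3c8 had 30.3, 80.1 and 38.5 against 76.2, 127.1 and 159.4 CPM, and the largest difference of the family (log2 fold change -1.28, SE 0.41, edgeR adjusted p = 0.105). In both genes footpad 2 alone made the sites overlap. H3c11 had 5.39, 9.92 and 6.92 against 4.02, 5.63 and 8.36 CPM and was the H3 member above 0 (log2 fold change 0.30, SE 0.35, edgeR adjusted p = 0.617).

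H4c14, the H4 gene of the chromosome 3 cluster, had the smallest adjusted p of any member. It had 38.8, 58.0 and 41.8 CPM in footpad 1, 2 and 3 and 118.7, 113.3 and 127.1 CPM in flank 1, 2 and 3. The flank tumors lay close together, the footpad tumors were all far below them, and H4c14 fell 2.59-fold (log2 fold change -1.37, SE 0.18, edgeR adjusted p = 0.0141). Its call was lost without footpad 1, footpad 3 or flank 3, at an adjusted p of 0.0612, 0.0874 and 0.0683. Unlike most members it did not follow the order of the flank tumors, where flank 1 was lowest for 58 of 64, and none of its 100-base windows occurs in another gene.

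Other abundant H4 genes differed by less and were not called. H4c4 (595.0 FPKM) had 145.7, 263.7 and 163.6 CPM in footpad and 265.2, 331.8 and 428.0 CPM in flank tumors, a log2 fold change of -0.84 (SE 0.27, edgeR adjusted p = 0.112), and H4c3 (506.2 FPKM) stood at -0.91 (SE 0.27, edgeR adjusted p = 0.0902). In H4c4 footpad 2 reached nearly the level of flank 1, and the sites did not overlap. Hist1h4n had 6.60, 16.5 and 14.3 CPM in footpad and 1.97, 3.13 and 5.45 CPM in flank tumors. Its footpad tumors were all above its flank tumors, 3.54-fold by the fit (log2 fold change 1.82, SE 0.47), with an edgeR adjusted p of 0.0654 and a DESeq2 adjusted p of 0.000366. Hist1h4m, named after its values were seen, had 3.97, 6.99 and 6.23 against 1.09, 1.68 and 2.89 CPM (log2 fold change 1.60, SE 0.42, edgeR adjusted p = 0.0686). Hist1h4m and Hist1h4n share 88.1% and 80.7% of their windows with other genes, so their separate values are uncertain.

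Members at high level all had values below 0, while members at low level went both ways. The 28 members with a mean of 100 FPKM or more all had a log2 fold change below 0, with a median of -1.04 and a range of -1.47 to -0.60. Of the 20 members from 20 to under 100 FPKM, 19 were below 0, with a median of -0.72. Among the 16 members under 20 FPKM, 7 were below and 9 above 0, with a median of 0.18 and a range of -1.22 to 2.04. Across the 64 members, which share the libraries and part of their sequence, Spearman's rho of mean FPKM with log2 fold change was -0.61, and that of the share of windows found in other genes with log2 fold change was 0.17 (63 members); both are descriptions across genes. Not every member at low level had a value above 0: H1f6, a testis linker histone at 10.25 FPKM, had 3.01, 8.61 and 3.61 CPM in footpad and 12.0, 9.25 and 14.2 CPM in flank tumors, without overlap (log2 fold change -1.22, SE 0.42, edgeR adjusted p = 0.125).

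**Figure D4:**
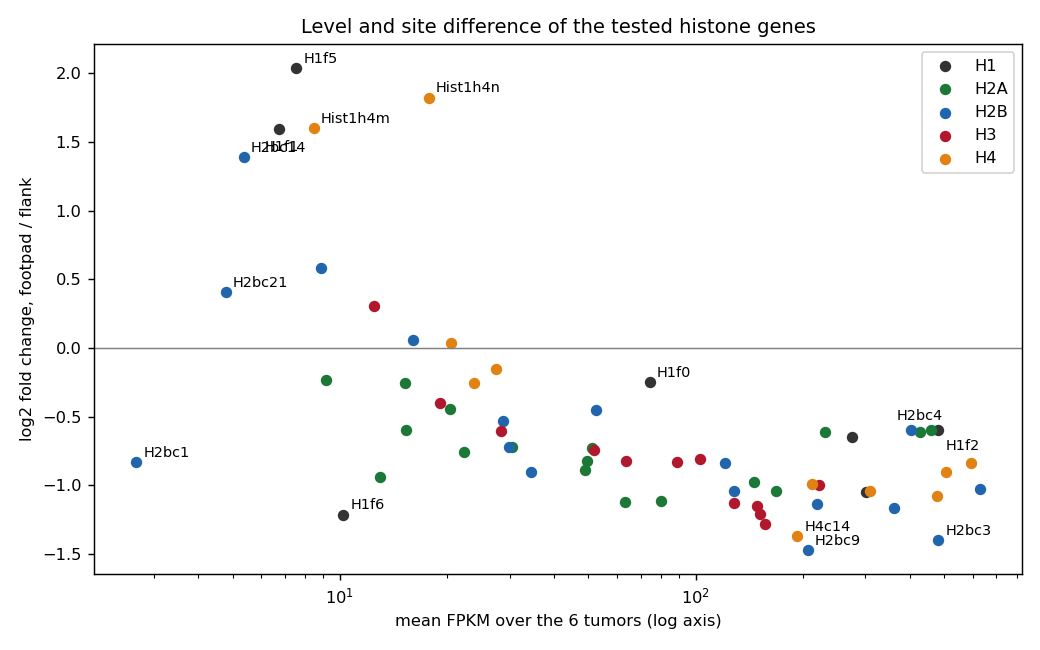
Log2 fold change (footpad over flank) of the 64 tested histone genes against their mean FPKM over the 6 tumors (log axis), colored by family. All 28 genes at or above 100 FPKM lie below 0, and the genes above 1, H1f5, Hist1h4n, Hist1h4m, H1f1 and H2bc14, are all under 20 FPKM.

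Of the 68 members, 63 lie in 3 blocks of the genome and 5 outside them, and the share of members below 0 ran differently from block to block. On chromosome 3, chr3:96219885-96270192 holds 10 members, of which 9 were below 0 (median -0.82) and H2bc21 above. The larger block on chromosome 13, chr13:23533875-23934913, holds 30 members, and of the 29 tested 28 were below 0 (median -1.04), with H1f1 as the exception. Lower in footpad tumors without overlap were 17 of the 29, and 6 of the 10 on chromosome 3, against 14.9% of all tested genes. The other block, chr13:21715711-22043658, holds 23 members with 15 below and 8 above 0 (median -0.40). In it 1 member was lower and 3 were higher without overlap, where 17.5% of all tested genes were higher. A gap of 197.6 kb after Hist1h2br parts that block: the 18 genes before it had a median of -0.26, 7 of them above 0, and the 5 after it a median of -0.82. The 18 genes before the gap also had the lower level, a median of 18.45 FPKM, where the larger chromosome 13 block had 162.2 FPKM. A median of 74.65% of their windows occurs in other genes, against 27.9% in the larger block. Level, place and shared sequence cannot be told apart.

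**Figure D5:**
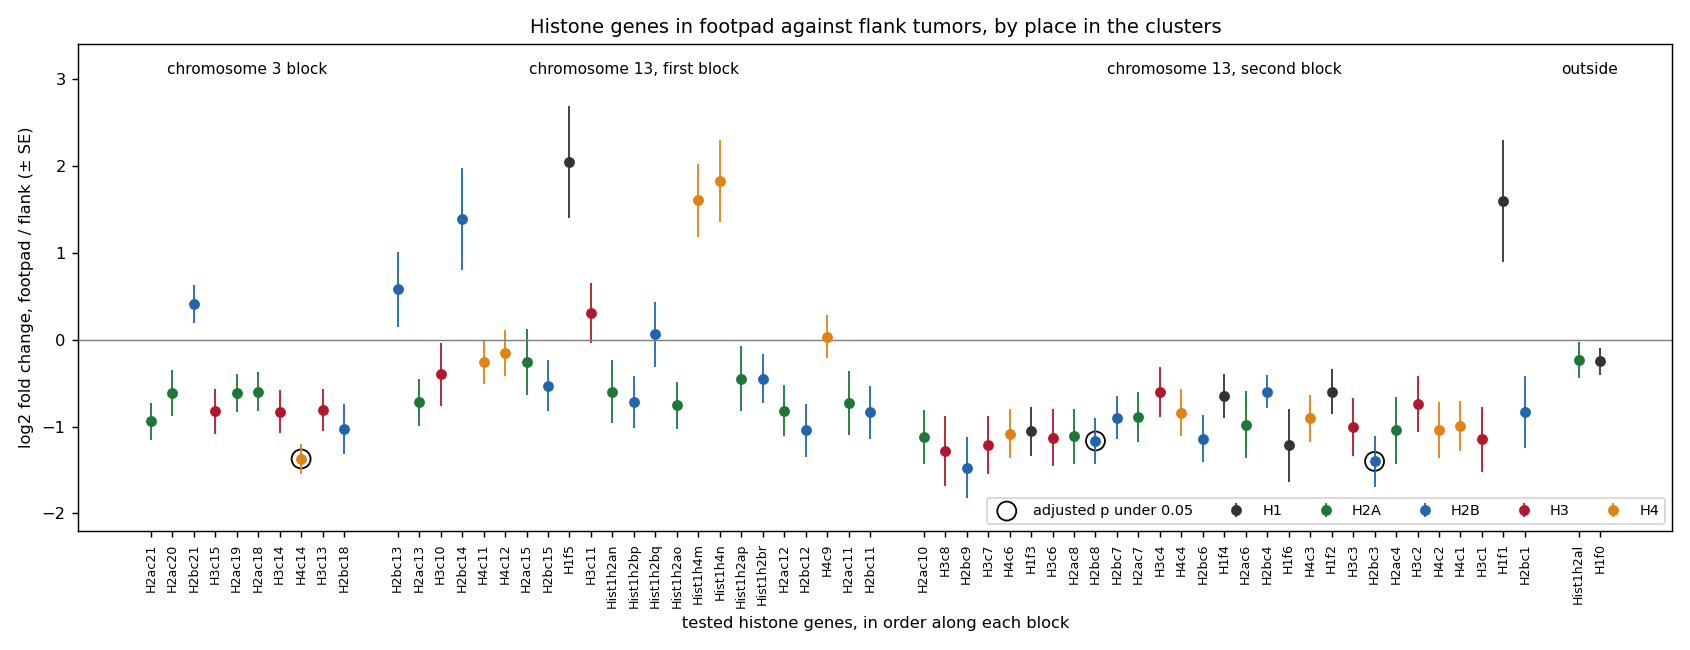
Log2 fold change (footpad over flank, ± SE) of the 64 tested histone genes in order along the 3 blocks and outside them, colored by family; rings mark the 3 genes with an adjusted p under 0.05. In the second chromosome 13 block 28 of 29 genes lie below 0, and in the first 15 of 23 do.

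Outside the blocks lie H1f0, on chromosome 15 and described above, Hist1h2al, H1f7, H1f8 and H1f10. Hist1h2al, the transcribed pseudogene at chr13:51200084-51203066, had 27.0, 29.5 and 27.7 CPM in footpad and 26.5, 28.4 and 44.0 CPM in flank tumors, with overlap (log2 fold change -0.23, SE 0.21, edgeR adjusted p = 0.519). H2bc1, a testis H2B inside the larger chromosome 13 block, had 1.03, 1.14 and 0.653 against 1.328, 1.3 and 2.413 CPM (log2 fold change -0.83, SE 0.41, edgeR adjusted p = 0.250), without overlap. The span of H2bc1 overlaps 1 other annotated gene, and 27.4% of its windows occur in other genes. Its 32 to 151 reads per tumor may therefore not all be its own. H1f8, the oocyte linker histone, had 24, 10 and 20 reads in footpad tumors and 0 in all 3 flank tumors, so its mean CPM was at least 7.24-fold higher in footpad tumors, taking 3 reads in each flank library as the limit that a count of 0 allows; this limit covers counting error only. H1f10 had 9, 8 and 10 reads against 2, 6 and 6, H2ac1 had 0, 10 and 0 against 1, 1 and 0, and H1f7 had 0 reads in every tumor.

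Genes that make and process histone mRNA were mostly below 0 too. Of 17 genes of histone transcription and mRNA processing, 16 were below 0, with a median of -0.30, and 0 were called. Slbp, whose protein binds the stem-loop, had 41.9, 53.3 and 61.6 CPM in footpad and 74.7, 83.6 and 76.0 CPM in flank tumors. Its sites did not overlap, at a log2 fold change of -0.58 (SE 0.16, edgeR adjusted p = 0.0815). Outside the naming rule and chosen after their values were seen, Ccne2, a cyclin of S phase entry, had the lowest value of the list at -0.95 (SE 0.28, edgeR adjusted p = 0.0891), and Ncbp2, of the cap-binding complex, stood at -0.52 (SE 0.14, edgeR adjusted p = 0.0758), both without overlap. Npat, which activates histone genes in S phase, stood at -0.27 (SE 0.14, edgeR adjusted p = 0.271), Casp8ap2 (FLASH), which acts in the same processing, at -0.17 (SE 0.16), and the U7 snRNP proteins Lsm10 and Lsm11 at -0.23 (SE 0.26) and -0.06 (SE 0.18).

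Among 27 chaperone and import genes, 21 were below 0 with a median of -0.31, and Anp32e, the chaperone that removes H2A.Z, was called lower (log2 fold change -0.62, SE 0.14, edgeR adjusted p = 0.0465). Nasp, a chaperone of H3 and H4 and of linker histones, stood at -0.68 (SE 0.23, edgeR adjusted p = 0.122), Chaf1b at -0.47 (SE 0.26) and Chaf1a at -0.31 (SE 0.22), both of the complex that places H3 and H4 on new DNA, and Asf1b at -0.18 (SE 0.23).

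Replacement variants, most of which are made through the cell cycle from polyadenylated mRNA, lie outside the symbol rule. They were also mostly below 0, 7 of 9 tested. H2afv, an H2A.Z gene, had 14.8, 19.9 and 18.4 CPM in footpad and 38.7, 26.1 and 35.2 CPM in flank tumors and was called lower (log2 fold change -0.91, SE 0.20, edgeR adjusted p = 0.0444). H2afj, an H2A variant, had 47.8, 65.0 and 58.3 against 30.8, 38.1 and 34.5 CPM and was called higher (log2 fold change 0.73, SE 0.16, edgeR adjusted p = 0.0463). Neither gene overlapped between the sites. H3f3a and H3f3b, which encode H3.3, stood at -0.69 (SE 0.21, edgeR adjusted p = 0.101) and -0.54 (SE 0.17, edgeR adjusted p = 0.102), H2afz at -0.63 (SE 0.26), the centromere variant Cenpa at -0.67 (SE 0.20) and H2afx at -0.43 (SE 0.36).

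S phase genes, which serve DNA replication, also had values below 0. All 42 had a log2 fold change below 0, with a median of -0.55, and 6 were called lower and 0 higher: Prim1 (-0.80), Rfc2 (-0.72), Gmnn (-0.88), Atad2 (-0.86), Dscc1 (-1.07) and Usp1 (-0.72), at edgeR adjusted p-values of 0.0363 to 0.0485. Their summed CPM was 2290, 3390 and 2880 in footpad and 3400, 4660 and 4750 in flank tumors. Of 30 G2 and M phase genes, 29 were below 0 (median -0.52), and the kinesin Kif11 (-0.86) and the kinetochore gene Ndc80 (-0.81) were called lower. Divided by the S phase sum of the same tumor, the histone sum was 1.39, 1.58 and 1.24 in footpad and 1.66, 1.54 and 1.96 in flank tumors, a mean of 1.40 ± 0.172 (SD, n = 3) against 1.72 ± 0.214 (SD, n = 3), with footpad 2 above flank 2. Relative to S phase genes the sites thus overlapped, as they did in the unscaled share of reads and did not in the TMM-scaled sums.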

How the data were processed

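Total RNA of 6 B16F10 tumors (3 footpad, 3 flank; 1 library each) was prepared with a stranded kit. Per the labels and the methods, the authors trimmed reads with Trimmomatic, checked them with FastQC 0.11.7 and aligned them with HISAT2 2.1.0 to mm10. Used here were the deposited gene counts, which are raw, and the FPKM values, which the authors scaled for length and depth. The counting program and its handling of reads that match several genes are not given in the sources used here. Histone genes are near copies of each other: over 67 transcripts a median of 34.3% of 100-base windows occurs in another gene.

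Counts were fitted in R 4.3.3 with edgeR 4.0.16 (TMM, filterByExpr, glmQLFit, glmQLFTest; Benjamini-Hochberg over 17210 genes). The SE is the size of the log2 fold change over the square root of F. Scripts were tested on simulated data. CPM values are TMM-scaled, and levels are compared between genes only in FPKM. Depth was 46529649 to 66364366 reads, the common biological coefficient of variation 0.3382.

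The members and the lists of other genes were chosen with earlier results of these data known. Named were members past the threshold, the 2 of highest FPKM and the extremes of each family, all tested linker histones and tested genes of special class, and, of the other lists, called genes and genes that act directly on histones. Alternatives were DESeq2 1.42.0, upper-quartile scaling, other filters, limma 3.58.1 on log2(FPKM + 1) and log2(FPKM + 0.1), a replicate block and leaving out each tumor. Sequences came from GENCODE and RefSeq on GRCm38, the build of mm10; all 68 members matched RefSeq by identifier. Proteins were not analysed here.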

Additional observations from a re-analysis of the deposited data

How the results depend on the processing

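The direction of the members as a group held under each alternative run, and the number of calls did not. The median log2 fold change of the tested members was between -0.81 and -0.75 under the other tools, scalings, filters and pseudocounts and under the replicate block, -0.76 for the 63 members with a mean of 100 counts or more, and -0.73 for the 20 members with under 20% of shared windows, a subset chosen after seeing the data. Leaving out 1 tumor moved it between -1.02 (without footpad 2) and -0.50 (without flank 3). Members called lower numbered 3 with edgeR, 32 with DESeq2, 6 with a filter of 10 counts in every tumor (2.04% of all genes), 1 with limma on log2(FPKM + 1) (1.18%), and 0 to 25 when 1 tumor was left out, where 25 was without footpad 2. Members called higher numbered 0 with edgeR, 5 with DESeq2 (H1f1, H1f5, H1f8, Hist1h4m and Hist1h4n), 1 without a low-count filter (H1f8; 1.49% of members and 1.81% of all genes), 1 with 10 counts in every tumor (Hist1h4n; 1.56% and 4.82%), and 0 to 1 when 1 tumor was left out. The member called higher with a tumor left out was H1f8, without footpad 2 (1.52% of members and 4.04% of all genes). The other fits with a tumor left out called 0% to 2.44% of all genes higher. Upper-quartile scaling and a fold of 2 or more each called H4c14, H2bc3 and H2bc8 lower (1.43% and 0.872% of all genes) and 0 higher. With limma on log2(FPKM + 0.1), H4c14, H2bc3 and H2ac21 were called lower (1.56%), without H2bc8 (limma adjusted p = 0.0647). Over the named members, 294 of the alternative values kept direction and side of the threshold, 24 passed it newly, 19 no longer did and 1 turned: Hist1h2al, whose log2 fold change ran from -0.371 (without flank 1) to 0.0275 (without flank 3). The cause of these changes was not tested.

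Whether tumors of the 2 sites came from the same mice is not given for these libraries, although the methods describe injection at both sites of a mouse. The shared replicate numbers gave no sign of pairing: the deviations of same-numbered tumors from their site means correlated at 0.064, -0.111 and -0.116. With the replicate block, 0 members were called lower and 0 higher, as was 0% of all genes, and H4c14, H2bc3 and H2bc8 stood at an adjusted p of 0.0694, 0.0872 and 0.0941. No tumor correlated best with its own number. The highest values were those of footpad 1 with flank 2 (0.138), footpad 2 with flank 3 (0.278) and footpad 3 with flank 1 (0.105). No label gives such pairs, and a fit paired in this way was not run. Depth limits the members under the filter, whose counts reach at most 24 reads in a library.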
